A study of Mus musculus with 12 samples.

Results

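The constructs described here were those of a pooled CRISPR library that targeted Ctla4 and Adora2a together and left Pdcd1 intact. They were picked by their target genes alone: a construct was kept when its set of targets held both Ctla4 and Adora2a, did not hold Pdcd1, and held 0 to 2 of Tigit, Btla and Havcr2. This rule gave 42 of the 689 constructs analysed, in 7 of the 101 combinations, with 6 constructs in each. Reads were taken from tumour-infiltrating lymphocytes (TIL) in 3 replicates and from the starting reference (SR), a frozen portion of the same kind of transduced cells, in 3 replicates. All cells were CD8+ T cells of C57BL/6 mice that had been stimulated ex vivo and carried a lentiviral cassette with 4 sgRNAs and the mKate2 marker. TIL were CD8+mKate2+ cells sorted 7 days after transfer into mice whose tumours had been inoculated 12 days before the transfer, and each TIL replicate pooled the cells of 3 to 4 recipients. The deposited tables are named for Hepa1-6, a mouse liver tumour line. The labels do not say whether the SR replicates came from separate transductions, so that p-values measure only the spread between these samples. No expression was measured, so neither the loss of the targeted proteins nor the identity of the sorted cells could be checked here.

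Ctla4 encodes CTLA-4, an inhibitory receptor that T cells bring to their surface after activation and that competes with CD28 for the ligands CD80 and CD86. Adora2a encodes a receptor for extracellular adenosine that raises cyclic AMP in T cells and dampens their activity where adenosine accumulates, as it does in many tumours. The genes added to the pair encode other inhibitory receptors: Btla a receptor for HVEM, Havcr2 the receptor TIM-3, and Tigit a receptor for CD155. Pdcd1, the gene left intact in these constructs, encodes PD-1.

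The sequences of 3 constructs are shown because they gave most of the reads behind the highest member combination, Adora2a+Btla+Ctla4. Each construct was numbered within its combination by its mean change in TIL, the highest first. Spacers are given in the order of the cassette, with those against Ctla4 or Adora2a in capitals and those against Btla, or the non-targeting filler in the last position, in lower case.
Adora2a+Btla+Ctla4 construct 1: ggaagggacactaacctggt, CGTCACCAAGCCATTGTACC, ACAGGTGACCCAACCTTCAG, cgaacccgtcgcccgcttac
Adora2a+Btla+Ctla4 construct 2: ACAGGTGACCCAACCTTCAG, ttgggactcctcggttattt, TGTCGATGGCAATAGCCAAG, ggccggacgaattacgatag
Adora2a+Btla+Ctla4 construct 3: GGAGAGCCAACCCCTACCAG, CTGCTAGCCAACACCACTGA, tcacatggatggttactgaa, gcgtcatactatcgttcgtc
Region 1 of the read-out covered spacers 1 and 2 of a construct, and region 2 covered spacers 2 and 3. Spacer 4 was not read, and it was the one against Ctla4 or Adora2a in 10 of the 42 constructs. Genome positions of the spacers are not analysed here, since the build used by the authors was not stated.

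The 42 constructs were built from 9 spacers against Ctla4 and 9 against Adora2a, each of 20 bases, and each spacer served in 3 to 7 of the constructs. Constructs of different combinations therefore shared guides and were not independent of each other. GC content ran from 35 to 55% in the Ctla4 spacers and from 45 to 70% in the Adora2a spacers. Of all pairs of spacers against the same gene among these, 1 pair overlapped by at least 10 bases, on the same strand of Adora2a. The 15 shared bases are in capitals.
Adora2a spacer of 5 member constructs: ctccaCAAAGACCTGCGGCG
Adora2a spacer of 4 member constructs: CAAAGACCTGCGGCGagggc

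Library totals ran from 8288404 to 23012713 scaled reads in TIL and from 9963617 to 25646820 in SR. Scaled reads are the authors' reads per construct multiplied by an unstated factor of the library and rounded. A construct counted as detected when it had over 1000 scaled reads in both regions, a threshold taken over from an earlier look at these data. TIL replicates 1 and 2 resembled each other more than they did replicate 3. They shared 29 detected constructs of the library, which were 37.2% of those detected in replicate 1 and 47.5% of those in replicate 2. Replicates 1 and 3 shared 18 (23.1 and 18.6%) and replicates 2 and 3 shared 14 (23 and 14.4%). Of the 42 members, replicates 1 and 2 had 1 detected construct in common, replicates 1 and 3 had 1 and replicates 2 and 3 had 0.

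As a group, the Ctla4 and Adora2a constructs took a similar or smaller part of the tumour reads than of the starting reads. They made up 6.10% of the constructs. In region 1 they took 4.77, 5.70 and 5.31% of the reads of TIL replicates 1, 2 and 3, against 5.77, 5.67 and 5.69% in the SR libraries set beside them. In region 2 their share was 4.60, 3.92 and 4.21% in TIL, against 5.58, 5.71 and 5.59% in SR. The share was lower in TIL than in SR in both regions of replicates 1 and 3, and in region 2 but not region 1 of replicate 2. The 2 regions read the same DNA, so they are not separate comparisons.

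Within that share the members were distributed unevenly in tumours. The median member had 0 to 6 scaled reads in the 6 TIL libraries, against 9493 to 32002.5 in the SR libraries. Between 7 and 32 of the 42 members were at 0 in a TIL library, and 0 were at 0 in any SR library. Starting levels were close to those of the library. Members ran from 63.8 to 3863 CPM in SR (scaled reads per 1000000 of the library total, averaged over the regions) with a median of 1123, against a median of 1136 over all constructs and of 806 over the non-targeting constructs.

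The first comparison asked which of the 42 constructs changed between TIL and SR. Most fell, none rose, and the share that fell was close to that of the whole library. Of the 42 members 27 fell (limma, Benjamini-Hochberg adjusted p under 0.05 over all 689 constructs); of all constructs 67.8% fell. The number that rose was 0 at this threshold and also 0 at an unadjusted p under 0.05, with 0.435% of all constructs called higher. The median change was -8.05 on the log2(CPM + 1) scale, against -8.50 over all constructs. On this scale a construct at or near 0 in TIL falls by about its SR level, so that the value is not the size of a loss. TIL and SR were also amplified by different PCR schemes, which cannot be told apart from the condition.

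All 27 fallen members were detected in no TIL replicate, and their changes lay between -11.21 and -5.96. The lowest value belonged to Adora2a+Ctla4+Havcr2+Tigit construct 6, with spacers against Ctla4, Tigit, Havcr2 and Adora2a in that order. It had 5 and 6 scaled reads in regions 1 and 2 of TIL 1, 2 and 0 in TIL 2 and 2 and 0 in TIL 3, against 36258 to 68537 in the SR libraries. Its change was -11.21 ± 0.18 (SE, n = 3). Construct 5 of the same combination had 0 to 45 scaled reads in TIL, against 46846 to 98651 in SR, with a change of -11.06 ± 0.41 (SE, n = 3). Adora2a+Btla+Ctla4+Tigit construct 6 had 0 to 9 in TIL, against 24406 to 67240 in SR, with a change of -10.93 ± 0.15 (SE, n = 3). In these 3 constructs the TIL and SR values did not overlap, and they did not in any other of the 27 fallen members, so this does not set the 3 apart. The share of all constructs without overlap was not counted. The remaining 15 members did not pass. Of these, 12 were detected in 1 or 2 TIL replicates and low in the others, and 3 had reads above 1000 in a single region. The fallen members were thus those with no TIL region above 1000, so their fall is not a result separate from detection. Without replicate 3, 2 members passed as higher in TIL, both of them against Adora2a, Btla and Ctla4: construct 1 at 5.88 (limma adjusted p = 0.0116) and construct 2 at 3.26 (limma adjusted p = 0.00340). In that setting 4.06% of all constructs were called higher, so 2 of 42 is near the share of the library. It also had 34 members lower, against 81.1% of all constructs.

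Members listed at 0 in all 6 TIL libraries numbered 2. Adora2a+Btla+Ctla4 construct 4 had 1852 to 13337 scaled reads in SR, and Adora2a+Ctla4+Havcr2 construct 2 had 312 to 2136. Their fitted falls of -8.09 and -5.96 depend on the added 1 CPM and are not sizes of a loss.

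Set against the non-targeting constructs, whose mean change was -8.40 on the log2 scale, few members stood apart. Of the 42 members 2 were higher and 8 lower than the non-targeting mean (limma adjusted p under 0.05), against 4.64% called higher and 21.0% called lower over all constructs. The median member lay at 0.34 and the median construct of the library at -0.10. When the values were centred on the median of all constructs instead, 14 members were higher and 6 lower, against 33.1% and 12.9% of all constructs, so the direction of the majority turned with the centring. Leaving out a replicate also decided the calls: 0 were higher and 0 lower without replicate 1 or without replicate 2, and 4 were higher and 12 lower without replicate 3, against 9.58% and 31.8% of all constructs.

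The higher and the lower constructs differed in how abundant they had been before transfer. Both higher ones had 0 to 2 scaled reads in TIL and very low SR levels of 63.8 and 73.1 CPM, at percentiles 1.02 and 1.31 of the library. These were Adora2a+Ctla4+Havcr2 construct 2, with 2.44 ± 0.45 (SE, n = 3; limma adjusted p = 0.0280), and Adora2a+Ctla4+Tigit construct 1, with 2.26 ± 0.45 (SE, n = 3; limma adjusted p = 0.0290). The 8 lower ones had at most 45 scaled reads in any TIL library, and their SR levels ran from 1048 to 3863 CPM, at percentiles 46.6 to 94.5. None of these 10 constructs was detected in a tumour.

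Detection gave a direct view of which constructs were found in tumours. In replicates 1, 2 and 3 of TIL, 4, 3 and 7 of the 42 members were detected, or 9.52% (exact binomial interval 2.66 to 22.6%), 7.14% (1.5 to 19.5%) and 16.7% (6.97 to 31.4%). The library as a whole had 11.3, 8.85 and 14.1%, so that the share of the library lay within the members' interval in every replicate. The intervals cover counting error only. Over the 3 replicates there were 14 detections in 126 cases, a case being 1 construct in 1 replicate, against 11.4% of the cases of the library and 16 of 252 for non-targeting constructs. No replicate held 30 of the members, a single one held 10, 2 members were found in 2 replicates and 0 in all of them. Of the 689 constructs 73.7% were detected in no replicate, 19.2% in a single one, 6.24% in 2 and 0.871% in 3.

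The gap between found and not found was wide. The 14 detections had between 17166 and 465273 scaled reads per region, while the 108 cases with neither region above the threshold reached at most 489. The regions disagreed in the other 4 cases, or 3.17% of the member cases, against 3.19% of the cases of the library. Detection also went with starting abundance. Of the 21 members at or above the median SR level of the library, 12 of 63 cases were detected (19%), and of the 21 below it 2 of 63 (3.17%). Over the whole library the same split gave 18.5 and 4.36%.

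Adora2a+Ctla4, the pair by itself, had a mean near that of the non-targeting constructs. Its constructs carried non-targeting filler in spacers 3 and 4. Construct 1 had 130819 and 105244 scaled reads in regions 1 and 2 of TIL 1, 110 and 1 in TIL 2 and 3 and 3 in TIL 3, against 6496 to 24650 in SR. Construct 2 had 7 and 6 in TIL 1, 0 and 0 in TIL 2 and 144091 and 17166 in TIL 3, against 21582 to 54256 in SR. Each was detected in a single tumour pool, and a different one. Construct 2 was above the SR library beside it in region 1 only, with a log2 TIL/SR ratio of 1.56 in region 1 and -0.33 in region 2 of TIL 3 in the authors' deposited table. The other 4 constructs had 0 to 33 scaled reads in TIL. A combination's value is the average of its 6 constructs less that of the non-targeting constructs. On this measure the pair had 0.89, -0.92 and -0.18 in replicates 1, 2 and 3, with a mean of -0.07 ± 0.58 (SE, n = 3; limma adjusted p = 0.928 over 101 combinations). It was detected in 2 of 18 cases.

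With Btla added, the combination Adora2a+Btla+Ctla4 had the highest value of the 7 and ranked 3 of all 101. It had 5.62, 4.45 and 0.66 on the log2 scale relative to non-targeting constructs in replicates 1, 2 and 3, with a mean of 3.57 ± 1.21 (SE, n = 3; 95% interval 0.75 to 6.40). This did not pass limma (adjusted p = 0.153, unadjusted p = 0.0197). It was detected in 4 of 18 cases. The value came from the 3 constructs printed above, since the other 3 had 0 to 5 scaled reads in the TIL libraries and fell.

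Construct 2, with guides against Ctla4, Btla and Adora2a in that order, was abundant in both of the TIL replicates that resembled each other. It had 282292 and 109318 scaled reads in regions 1 and 2 of TIL 1, 465273 and 193485 in TIL 2 and 2 and 0 in TIL 3, against 11857 to 41994 in SR. Construct 3, with guides against Adora2a, Ctla4 and Btla, had 170856 and 97952 in TIL 1, 0 and 0 in TIL 2 and 84777 and 26587 in TIL 3, against 13571 to 43079 in SR. These 2 constructs were the only members detected in 2 replicates, and in those replicates both regions lay above the SR library set beside them, while the remaining replicate was at or near 0. Their changes were -1.21 ± 4.17 and -2.35 ± 3.78 (SE, n = 3), neither past limma (adjusted p = 0.795 and 0.592).

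Construct 1 of the same combination was read differently by the regions. Its guides were against Btla, Adora2a and Ctla4, and region 2 differs from region 1 by reading the Ctla4 spacer in place of the Btla spacer. It had 285976 scaled reads in region 1 and 2 in region 2 of TIL 1, 233284 and 0 in TIL 2, and 0 and 0 in TIL 3, against 654 to 6557 in SR. Its level in SR was at percentile 4.06 of the library. The mean change of 1.71 ± 3.88 (SE, n = 3; limma adjusted p = 0.698), the highest of the 42, therefore rested on region 1 alone. The authors' deposited table gives log2 TIL/SR ratios of 5.44 in region 1 and -7.96 in region 2 for TIL 1, and of 7.63 and -6.05 for TIL 2. Taking region 2 only, the combination Adora2a+Btla+Ctla4 had 2.21, and taking the lower of both regions in each replicate, a choice made after the data had been seen, it had 2.24. Without replicate 3 it had 5.03 and passed limma (adjusted p = 0.0162), where 9.90% of the 101 combinations were called higher. It had 2.55 without replicate 1 and 3.14 without replicate 2, neither past limma (adjusted p = 0.478 and 0.535).

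Adora2a+Ctla4+Havcr2, the pair with the TIM-3 gene, was high in a single replicate. Its values were -0.92, -0.39 and 4.33 relative to non-targeting constructs, with a mean of 1.01 ± 1.27 (SE, n = 3; limma adjusted p = 0.763). Construct 1 had 123360 and 22669 scaled reads in TIL 3 and 2 to 56 in the other TIL libraries, against 14010 to 36045 in SR. Construct 4 had 278872 and 130310 in TIL 3 and 6 to 29 in the others, against 32773 to 72653 in SR. Construct 3 had 122988 in region 1 and 0 in region 2 of TIL 3 and 0 to 3 in the others, against 9776 to 39657 in SR. So all 3 constructs with reads above the threshold had them in the third tumour pool.

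Adora2a+Ctla4+Tigit also had a mean near that of the non-targeting constructs. Its values were -0.37, 0.46 and 0.85, with a mean of 0.31 ± 0.51 (SE, n = 3; limma adjusted p = 0.769). Construct 2 supplied the single detection in 18 cases, with 141625 and 36076 scaled reads in TIL 3 and 5 to 28 in the other TIL libraries, against 27078 to 70178 in SR. The other 5 constructs had 0 to 17 in TIL.

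The combinations of 4 genes spread around the non-targeting level. Adora2a+Btla+Ctla4+Havcr2 had 0.93, 2.28 and 0.06 in replicates 1, 2 and 3, with a mean of 1.09 ± 0.63 (SE, n = 3; limma adjusted p = 0.449). Its construct 1 had 226134 and 119785 scaled reads in TIL 2 and 0 to 3 in the other TIL libraries, against 6670 to 21901 in SR. Construct 3 had 88289 and 38413 in TIL 3 and 0 to 8 in the others, against 22518 to 64949 in SR. Construct 2 had 142850 in region 2 and 10 in region 1 of TIL 1, with 0 to 224 in the others, against 9210 to 31883 in SR. In this case region 2 was the high one, which reads the Btla spacer in place of the Adora2a spacer of region 1.

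Adora2a+Btla+Ctla4+Tigit had 1.00, -0.88 and 0.47, with a mean of 0.20 ± 0.60 (SE, n = 3; limma adjusted p = 0.871). Construct 1 had 155012 and 204920 scaled reads in TIL 1, 90 and 1 in TIL 2 and 489 and 155 in TIL 3, against 15169 to 45805 in SR. The values of 489 and 155 were the highest of any member case below the threshold in both regions. Construct 2 had 223094 and 77417 in TIL 3 and 0 to 25 in the others, against 28179 to 74230 in SR. Each of these constructs was again high in a single tumour pool.

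Adora2a+Ctla4+Havcr2+Tigit had the lowest value of the 7 combinations. Its values were -1.27, 1.04 and -2.68 in replicates 1, 2 and 3, with a mean of -0.97 ± 0.92 (SE, n = 3; limma adjusted p = 0.639). Its SR levels relative to non-targeting constructs were 0.77, 1.10 and 1.13, the highest of the 7 in each replicate. Its TIL levels relative to them were -0.50, 2.14 and -1.56, the lowest of the 7 in replicate 3 only. How far starting levels account for the low value was not tested. Construct 1 had 386791 and 317541 scaled reads in TIL 2 and 0 to 9 in the other TIL libraries, against 20022 to 42892 in SR. It was the single detection of the combination, and the 5 other constructs all fell.

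Taken over combinations, 0 of the 7 passed limma and 1 had an unadjusted p under 0.05. Over the library 0.990% of combinations were called higher and 0% lower, with 17 higher and 2 lower at an unadjusted p under 0.05. The median of the 7 was 0.31, against 0.52 over the 101. When the median over a combination's constructs replaced the mean, 3 of the 7 passed as lower than non-targeting constructs: Adora2a+Btla+Ctla4+Tigit at -0.91, Adora2a+Ctla4 at -0.69 and Adora2a+Ctla4+Havcr2+Tigit at -0.46 (limma adjusted p = 0.00291, 0.00708 and 0.0273). With medians 36.6% of the 101 combinations were called lower and 10.9% higher, of which 0 were members. The median SR levels of the 3 lower ones were 1694, 1500 and 1344 CPM, against 806 for the non-targeting constructs. A median construct near 0 in TIL falls by about its SR level, so these calls cannot be told apart from starting levels. Adora2a+Ctla4+Havcr2 had -0.65 without replicate 3, and Adora2a+Ctla4+Tigit had -0.31 when centred on all constructs. Averaged over constructs, the 42 members lay at 0.73 ± 0.20 (SD, n = 3) relative to non-targeting constructs, against 0.62 ± 0.27 for the whole library.

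Matched pairs were then used to ask what single genes added. A matched pair is 2 combinations that differ by 1 gene, and its difference is the combination with the gene minus that without it. The library had 248 such pairs and 27 of them held at least 1 member combination. None of the 27 passed limma (adjusted over 248), where 0% of all pairs were called higher and 0.806% lower. At an unadjusted p under 0.05 there were 3 higher and 2 lower among the 27, against 21 higher and 22 lower among the 248. Pairs share combinations and are not independent of each other. Adora2a+Btla+Ctla4 was in the largest difference for Adora2a, Ctla4 and Btla and in the lowest for Pdcd1, Havcr2 and Tigit. Those differences rest on the same combination and are not separate observations. With medians over constructs in place of means, 4 of the 27 passed as higher and 5 as lower, against 16.5% and 17.7% of the 248. Where the median construct of both combinations was near 0 in TIL, such a difference follows their SR levels. It then cannot be told apart from starting levels and does not measure what a gene adds. Without replicate 3, 2 passed as higher and 1 as lower, against 2.42% of the 248 in each direction. Leaving out replicate 1 or replicate 2 instead, 0 of the 27 passed in either direction.

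Adding Adora2a to a combination with Ctla4 gave differences in both directions. Of 7 pairs 3 were above 0, with a median of -0.74. The largest was Adora2a+Btla+Ctla4 over Btla+Ctla4, at 4.12 ± 1.10 on the log2 scale (SE, n = 3; 95% interval 1.40 to 6.84; limma adjusted p = 0.149), above 0 in 3 of 3 replicates with 6.12, 4.39 and 1.86. It was 2.92 with region 2 only and 1.59 with medians over constructs. The lowest was Adora2a+Ctla4+Tigit over Ctla4+Tigit, at -3.0 ± 2.10 (SE, n = 3; 95% interval -8.19 to 2.18; limma adjusted p = 0.518), with -6.56, -4.09 and 1.64. Over the 7 pairs, 14 of 126 cases were detected with Adora2a and 14 of 126 without it.

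Adding Ctla4 to a combination with Adora2a was above 0 in 2 of 7 pairs, with a median of -0.73. Adora2a+Btla+Ctla4 over Adora2a+Btla was the largest, at 2.71 ± 1.63 (SE, n = 3; 95% interval -1.30 to 6.73; limma adjusted p = 0.457), with 6.11, 2.36 and -0.33. It was 0.91 with region 2 only and 0.90 with the lower of both regions. Adora2a+Ctla4+Havcr2+Tigit over Adora2a+Havcr2+Tigit was the lowest, at -1.79 ± 0.73 (SE, n = 3; 95% interval -3.59 to 0.01; limma adjusted p = 0.273), below 0 in 3 of 3 replicates, and it passed at -0.83 with medians (limma adjusted p = 0.0332). In this pair SR levels relative to non-targeting constructs were 0.77, 1.10 and 1.13 with Ctla4 and 0.10, -0.33 and -0.13 without it. TIL levels were -0.50, 2.14 and -1.56 with Ctla4 and 1.57, 2.18 and -1.66 without it. The call with medians and the shared sign therefore cannot be told apart from starting levels. Over the 7 pairs, detected cases were 14 of 126 with Ctla4 and 18 of 126 without it. The pair by itself had -0.07, against 0.67 for Ctla4 and 0.75 for Adora2a alone. Its difference was -0.74 from Ctla4 (95% interval -3.55 to 2.08) and -0.82 from Adora2a (95% interval -2.58 to 0.94), neither past limma (adjusted p = 0.782 and 0.622). With medians both passed as lower, at -0.90 from Ctla4 and -0.43 from Adora2a (limma adjusted p = 0.0163 and 0.0498). Mean SR levels relative to non-targeting constructs were 0.63, 0.74 and 0.60 for the pair in replicates 1, 2 and 3. They were -0.13, -0.07 and -0.20 for Ctla4 and 0.47, 0.35 and 0.30 for Adora2a. The calls with medians at -0.90 and -0.43 therefore cannot be told apart from starting levels.

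Adding Pdcd1, whose product PD-1 the members keep, could be examined for the 4 member combinations of 2 or 3 genes. Detection was 20 of 72 cases with Pdcd1 and 9 of 72 without it, and the 4 differences ran from -3.36 to 6.32. Adora2a+Ctla4+Pdcd1 over Adora2a+Ctla4 was highest, at 6.32 ± 1.23 (SE, n = 3; 95% interval 3.29 to 9.35), above 0 in 3 of 3 replicates with 6.32, 8.74 and 3.89. It did not pass limma over all pairs (adjusted p = 0.0970, unadjusted p = 0.00235), but passed at 10.27 with medians over constructs (limma adjusted p = 0.0162). Detected cases were 10 of 18 with Pdcd1 and 2 of 18 for the pair alone. SR levels relative to non-targeting constructs were 1.06, 1.47 and 1.36 with Pdcd1 in replicates 1, 2 and 3. For the pair alone they were 0.63, 0.74 and 0.60. In the same test Adora2a+Btla+Ctla4+Pdcd1 over Adora2a+Btla+Ctla4 went the other way, at -3.36 ± 1.00 (SE, n = 3; 95% interval -5.84 to -0.89; limma adjusted p = 0.173), below 0 in 3 of 3 replicates with -5.25, -3.51 and -1.34. With region 2 only it was -1.80, and with the lower of both regions -1.91. Here 0 of 18 cases were detected with Pdcd1 and 4 of 18 without it. SR levels were -0.67, -0.99 and -1.02 with Pdcd1 and -0.11, -0.55 and -0.37 without it. Since detection went with starting abundance, these counts do not isolate Pdcd1, and how far starting levels account for them was not tested.

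Adora2a+Ctla4+Havcr2+Pdcd1 over Adora2a+Ctla4+Havcr2 had 5.83, 6.14 and -2.74 in replicates 1, 2 and 3, and Adora2a+Ctla4+Pdcd1+Tigit over Adora2a+Ctla4+Tigit had 2.43, 2.20 and -1.81. Both were above 0 in the first 2 replicates and below it in the third, and neither passed limma (adjusted p = 0.574 and 0.753). In the pair with Havcr2, SR levels were 0.79, 0.81 and 0.80 with Pdcd1 and 0.26, 0.37 and 0.22 without it. In the pair with Tigit they were -0.20, -0.60 and -0.66 with Pdcd1 and -0.39, -0.48 and -0.47 without it. Without replicate 3 the pair with Havcr2 passed at 5.98 (limma adjusted p = 0.0158). Averaged over constructs, the 24 constructs against Adora2a, Ctla4 and Pdcd1 lay at 2.95 ± 1.79 (SD, n = 3) relative to non-targeting constructs, against 0.73 ± 0.20 for the 42 members. Constructs with Ctla4 but neither Adora2a nor Pdcd1 lay at 0.74 ± 0.36, and those with Adora2a but neither Ctla4 nor Pdcd1 at 0.84 ± 0.77 (SD, n = 3). These means over sets of constructs were not tested against each other.

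Btla, Havcr2 and Tigit, each added in 3 pairs, all gave differences on both sides of 0, and the genes were not tested against each other. Btla gave a largest difference of 3.64 ± 1.23 (SE, n = 3; 95% interval 0.62 to 6.66; limma adjusted p = 0.221) in Adora2a+Btla+Ctla4 over Adora2a+Ctla4, above 0 in 3 of 3 replicates. It was 2.56 with region 2 only. In replicate 3 the TIL level was 0.29 with Btla and 0.42 without it, and the SR level -0.37 with Btla and 0.60 without it. The lowest difference for Btla was -0.12 ± 0.73 (SE, n = 3; limma adjusted p = 0.940), in Adora2a+Btla+Ctla4+Tigit over Adora2a+Ctla4+Tigit, and passed at -1.30 with medians (limma adjusted p = 0.0157). For Havcr2 they ran from -2.48 ± 1.12, in Adora2a+Btla+Ctla4+Havcr2 over Adora2a+Btla+Ctla4, to 1.08 ± 1.58, in Adora2a+Ctla4+Havcr2 over Adora2a+Ctla4 (SE, n = 3; limma adjusted p = 0.295 and 0.770). For Tigit they ran from -3.38 ± 1.42, in Adora2a+Btla+Ctla4+Tigit over Adora2a+Btla+Ctla4, to 0.38 ± 0.77, in Adora2a+Ctla4+Tigit over Adora2a+Ctla4 (SE, n = 3; limma adjusted p = 0.273 and 0.812). The second of these passed at 1.09 with medians (limma adjusted p = 0.0240). Median SR levels were 658 CPM for Adora2a+Ctla4+Tigit, 1500 CPM for Adora2a+Ctla4 and 1694 CPM for Adora2a+Btla+Ctla4+Tigit. The calls with medians at -1.30 and 1.09 therefore cannot be told apart from starting levels. Adding Havcr2 or Tigit to Adora2a+Btla+Ctla4 was below 0 in 3 of 3 replicates for each gene, and with region 2 only these differences were -1.20 for Havcr2 and -2.08 for Tigit. SR levels relative to non-targeting constructs were 0.41, 0.23 and 0.34 with Havcr2 and 0.71, 0.79 and 0.83 with Tigit. Without either they were -0.11, -0.55 and -0.37. In replicate 3 TIL levels were 0.40 with Havcr2 and 1.30 with Tigit, against 0.29 without either. In that replicate the sign therefore came from the SR levels. How far SR levels account for the other replicates was not tested. Without replicate 3, adding Btla to Adora2a+Ctla4 passed at 5.04 and adding Tigit to Adora2a+Btla+Ctla4 passed at -4.97 (limma adjusted p = 0.0160 each). With and without the added gene, 8 and 5 of 54 cases were detected for Btla, 5 and 7 for Havcr2 and 4 and 8 for Tigit.

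Detections were spread over the guides. Of the 9 spacers against each gene, 7 against Ctla4 and 6 against Adora2a were in at least 1 detected member. The 4 spacers below are shown because they mark the ends of that spread.
Ctla4 spacer with 0 of 18 member cases detected: TGTGATGGTGAATATTCACA
Ctla4 spacer with 3 of 9 member cases detected: CTGCTAGCCAACACCACTGA
Adora2a spacer with 0 of 21 member cases detected: CATCGGCCTGACCCCCATGC
Adora2a spacer with 4 of 12 member cases detected: TGTCGATGGCAATAGCCAAG
Across all constructs of the library that carried them, the same spacers were detected in 2 of 51, 8 of 54, 6 of 66 and 9 of 51 cases. The first of them was the least often detected Ctla4 spacer of the library, at 3.92% of its cases, where the 9 Ctla4 spacers reached 24.1%.

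The overlapping Adora2a spacers printed earlier gave 2 of 15 and 2 of 12 detected member cases. Over the library they gave 6 of 57 cases (10.5%) and 17 of 51 (33.3%), the second being the most often detected of the 9 Adora2a spacers. Other guides in these constructs differ as well, so these values describe constructs and not single guides. By place in the cassette, members with the Ctla4 spacer in positions 1, 2, 3 and 4 were detected in 5 of 39, 4 of 39, 3 of 27 and 2 of 21 cases. Members with the Adora2a spacer in these positions were detected in 3 of 42, 4 of 42, 6 of 33 and 1 of 9 cases.

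The authors scored a construct as up when its log2 TIL/SR ratio was at least 1 in both regions. In replicates 1, 2 and 3 there were 4, 3 and 2 such member constructs, counted from the authors' deposited tables, against 8.71, 7.55 and 6.10% of the library, and against 4, 2 and 5 of the 84 non-targeting constructs. As a share of the 42 members these were 9.52, 7.14 and 4.76%. Adora2a+Btla+Ctla4 had 2, 1 and 0 such constructs, with a log2 enrichment of 2.28, 1.90 and 0 in the authors' deposited tables. That enrichment equals the log2 ratio of the share of up constructs among the combination's 6 to their share in the library, with 1 added to each count, and is listed as 0 where no construct was up. Without the added 1, the values of 2.28 and 1.90 would be 1.94 and 1.15. Adora2a+Btla+Ctla4+Tigit had 1, 0 and 1, with 1.69, 0 and 2.20, and Adora2a+Ctla4 had 1 in replicate 1 only, with 1.69. Adora2a+Btla+Ctla4+Havcr2 and Adora2a+Ctla4+Havcr2+Tigit each had 1 in replicate 2, with 1.90, and Adora2a+Ctla4+Havcr2 had 1 in replicate 3, with 2.20. Adora2a+Ctla4+Tigit had 0 in every replicate. Construct 2 of Adora2a+Btla+Ctla4 was the only member up in 2 replicates, with authors' log2 ratios of 2.75 and 2.15 in TIL 1 and of 3.73 and 3.67 in TIL 2.

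Tumour replicates ordered the members alike only in part. For replicates 1 and 2 the log2 changes of the 42 members had a Pearson's r of 0.46 and a Spearman's rho of 0.74, against 0.41 and 0.64 over the 689 constructs. For replicates 1 and 3 the members had 0.03 and 0.33, and for replicates 2 and 3 they had -0.15 and 0.21. These are correlations across constructs that share guides and starting levels, given as a description.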

How the data were processed

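CD8+ T cell genomic DNA was read by PCR over 2 regions of the 4-sgRNA cassette in 12 libraries. Per the labels' protocols, SR was read by direct PCR and TIL by a PCR in 2 steps, and TIL were pelleted with human Raji cells as carrier, at 1 to 50, before extraction, so amplification differed between the conditions compared. The values analysed were scores: the authors deposited scaled, rounded reads for each construct, with a scaling factor not given in the sources used here, so count tests were not used. Bowtie2 is listed, without its role, per the submitters' processing notes. Deposited log2 values compare TIL with SR. Recomputing them with 10 added to both values returned each within 5e-05. The deposited tables also give numbers of constructs up 2-fold and their log2 enrichment.

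The 2 regions read the same DNA and were counted as 1 replicate: each library was divided by its total, the regions were averaged as CPM, and analysed as log2(CPM + 1) without a filter. SR columns carry no replicate number and took the number of the TIL library in the same table. TIL was compared with SR in limma 3.58.1 (R 4.3.3) over all 689 constructs, 101 combinations or 248 matched pairs, with Benjamini-Hochberg adjustment over each. The limma fits were run on simulated data with known changes, drawn with the spread of the SR values. TIL values were spread far more widely, so this checked the code and not the power of the fits on these data. Detection and the 2-fold counts were not simulated. Exact binomial intervals (95%) used SciPy 1.17.1. The library's remaining construct was not analysed here. All 7 combinations were named; constructs were named when past limma upward, detected in at least 2 TIL replicates, or among the 3 highest or lowest by mean change; pairs were named when largest in either direction for the added gene. Other constructs with reads above 1000 in TIL, those listed at 0 in TIL, those called higher than non-targeting, and the other pairs with Pdcd1 or with a single gene were named after their values were seen. Members, lists and the threshold of 1000 were chosen with earlier results of these data known.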

Additional observations from a re-analysis of the deposited data

How the results depend on the processing

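Over the 9 alternatives 27 to 34 of the 42 members fell, and 25 of the 40 with at least 100 CPM in SR, against 453 of 675 to 559 of 689 constructs of the library. Members that rose numbered 0 to 2 when leaving out each replicate, with 2 of 42 and 28 of 689 without replicate 3, and 0 otherwise, with 2 to 7 in the library. Calls relative to non-targeting constructs were unstable. Higher members numbered 2 in the reported fit, 0 among constructs with at least 100 CPM in SR, 14 when centred on all constructs, 0 with the replicate block and 0 to 4 when leaving out each replicate. Lower members numbered 8 in the reported fit, 0 with the replicate block, 15 with the lower of both regions (added after seeing the data) and 0 to 12 when leaving out each replicate. Over the library these calls were 32 higher and 145 lower in the reported fit, 228 and 89 when centred on all constructs, 12 and 78 with at least 100 CPM in SR, 0 and 0 with the block or without replicate 1, 9 and 0 without replicate 2 and 66 and 219 without replicate 3. They were 56 and 203 with a pseudocount of 10 CPM, 42 and 220 with region 1 only, 16 and 125 with region 2 only and 38 and 235 with the lower of both regions. Among the 42 members they were 3 and 11 with a pseudocount of 10 CPM and 2 and 12 with region 1 only. With region 2 only they were 2 and 8, and with the lower of both regions 3 and 15. With at least 100 CPM in SR 6 members were lower. The cause was not tested.

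Of the 7 combinations, 0 were higher in the reported fit, 1 (Adora2a+Btla+Ctla4) with the replicate block (3.57, limma adjusted p = 0.00464) and 0 to 1 when leaving out each replicate. With the block all 7 had the same SE of 0.92, so that p-value does not measure the spread of Adora2a+Btla+Ctla4 itself. Its SE was 1.21 in the reported fit. With medians over constructs 3 were lower: Adora2a+Btla+Ctla4+Tigit (-0.91), Adora2a+Ctla4 (-0.69) and Adora2a+Ctla4+Havcr2+Tigit (-0.46). With the median construct near 0 in TIL, these calls cannot be told apart from starting levels. Over the library 1 combination was higher and 0 lower in the reported fit, against 11 and 37 with medians, 4 and 0 with the block, 2 and 0 with region 1 only and 10 and 0 without replicate 3, and 0 and 0 with region 2 only, with centring on all constructs, without replicate 1 or 2 or with the lower of both regions. Several values near 0 changed sign. Adora2a+Btla+Ctla4+Tigit had -0.22 with a pseudocount of 10 CPM, -0.42 when centred on all constructs and -0.20 to 0.73 when leaving out each replicate. Adora2a+Ctla4 had 0.18 with region 1 only, 0.052 with at least 100 CPM in SR and -0.55 to 0.36 when leaving out each replicate. Adora2a+Ctla4+Tigit had -0.31 when centred on all constructs, and Adora2a+Ctla4+Havcr2 had -0.65 to 1.97 when leaving out each replicate. Adora2a+Btla+Ctla4 stayed above 0 throughout, between 2.12 and 5.03, with limma adjusted p between 0.00464 (the replicate block, with its shared SE) and 0.535.

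Of the 27 matched pairs, 0 were called in the reported fit, against 4 higher and 5 lower with medians over constructs, and 0 to 2 higher and 0 to 1 lower when leaving out each replicate. Over the library 0 pairs were higher and 2 lower in the reported fit, against 41 and 44 with medians, 6 and 6 without replicate 3, 1 and 2 with region 1 only or with at least 100 CPM in SR, 0 and 1 with a pseudocount of 10 CPM, and 0 and 0 under the other alternatives. Adora2a+Btla+Ctla4+Tigit over Adora2a+Ctla4+Tigit had 0.27 with at least 100 CPM in SR, -1.30 with medians (a call) and -0.86 to 0.49 when leaving out each replicate. Adora2a+Ctla4+Tigit over Adora2a+Ctla4 had -0.0076 with at least 100 CPM in SR, 1.09 with medians (a call) and -0.12 to 1.21 when leaving out each replicate, and Adora2a+Ctla4+Havcr2 over Adora2a+Ctla4 had -0.64 to 2.52. The calls with medians at -1.30 and 1.09 cannot be told apart from starting levels.

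Detection stayed between 8.33 and 14.3% of member cases over the 6 alternatives, and up 2-fold cases were 9, or 11 by the mean of the regions. The replicate block used table numbers, and TIL and SR of the same table hardly deviated together (r = 0.07, -0.08 and 0.09). TIL and SR of different tables did so as little (r from -0.13 to 0.12). This check therefore cannot show whether the numbers pair the samples. The factor that scaled the reads is unknown, so no counting limit per construct is given.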
